A study of Rattus norvegicus with 12 samples.

Results

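Hepatokines are hormones and carrier proteins that the liver releases into the blood to act on metabolism elsewhere. The group described here held 8 of them, taken by gene name and not by any measured value: Fgf21, Gdf15, Angptl4, Lect2, Enho, Fetub, Rbp4 and Sepp1. A transcript carrying the name was found for 7 of the 8 genes, in 9 of the 34391 transcripts of the table. None carried the name Enho, the gene of adropin, so it was not analysed here. Fetub and Lect2 had 2 transcripts each, and the one with the higher mean level over all livers was taken as the main transcript. Transcript levels were measured as RPKM, reads scaled to the length of the transcript and to the mapped reads of the library, so levels of different genes can be set side by side per length.

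Livers came from female rats of the inbred alcohol-preferring strain iP10a, and every animal in both groups was of this strain. The 6 EtOH animals could choose among water and ethanol at 10, 20 and 30% (v/v) for 23 weeks, and the 6 controls had water. Animals were 38 weeks old, apart from EtOH animal 6, which was 39 weeks old. Poly(A) RNA of 1 liver made 1 library, so n is the number of animals. The intake of ethanol was free, and the strain was bred for it, which limits the comparison to this strain and sex.

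Between 2610238 and 4318141 reads per control liver and between 3945593 and 6030028 per EtOH liver were recovered from the deposited values, so EtOH livers were sequenced somewhat deeper. Albumin was the hepatocyte marker at the highest level in both groups, and the adipocyte genes Adipoq and Lep were listed at 0 in all 12 livers. All 19 markers of Kupffer, stellate and endothelial cells that could be tested had positive differences, and 5 of them were higher in EtOH livers by limma (Clec4f, Cd163, Vsig4, Col3a1 and Cdh5, named after the values were seen). The summed RPKM of the Kupffer and leukocyte markers was 112 to 169 in controls and 151 to 195 in EtOH livers. The summed levels were 84.0 to 106 and 90.9 to 119 for stellate cell markers, and 24.8 to 32.2 and 28.5 to 39.6 for endothelial markers. The part of these cells in the results on hepatokines was not tested. A difference was called at a limma adjusted p below 0.05 over all 21718 transcripts above 0 in at least 1 liver, and 2.42% of these were called (1.13% higher and 1.29% lower in EtOH livers). Log2 differences below are EtOH minus control on quantile-normalized log2(RPKM + 0.5), a scale that understates changes of low transcripts.

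The members differ in what drives their genes and in what they do. Fgf21 and Angptl4 are known targets of the fatty acid receptor PPARalpha, and Fgf21 and Gdf15 also respond to the stress factor ATF4. FGF21 and GDF15 lower appetite or change substrate use through receptors in the brain and other tissues, ANGPTL4 blocks lipoprotein lipase, and LECT2 and fetuin-B have been linked to insulin resistance. RBP4 carries retinol in a complex with transthyretin, and selenoprotein P, the product of Sepp1, carries selenium from the liver.

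The 250 bases before the start of the Fgf21, Angptl4, Gdf15 and Sepp1 genes are shown, 5′ to 3′ along the gene. Matches to searched motifs are in capitals, and sites farther upstream or within the genes were not searched. The sequences are from RefSeq on the GRCr8 build, at chr1:105221377-105221626 (minus strand), chr7:15258682-15258931 (minus strand), chr16:18838186-18838435 (plus strand) and chr2:54225486-54225735 (plus strand).
Fgf21: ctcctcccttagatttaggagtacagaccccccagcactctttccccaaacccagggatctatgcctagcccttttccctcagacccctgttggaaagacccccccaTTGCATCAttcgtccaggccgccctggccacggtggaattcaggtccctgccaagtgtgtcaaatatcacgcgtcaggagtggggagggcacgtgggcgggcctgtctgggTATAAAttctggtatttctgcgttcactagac
Angptl4: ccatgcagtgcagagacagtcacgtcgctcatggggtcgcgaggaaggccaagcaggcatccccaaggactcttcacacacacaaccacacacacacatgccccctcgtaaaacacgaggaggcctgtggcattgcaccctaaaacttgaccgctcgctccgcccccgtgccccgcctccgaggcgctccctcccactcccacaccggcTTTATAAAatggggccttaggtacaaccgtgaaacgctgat
Gdf15: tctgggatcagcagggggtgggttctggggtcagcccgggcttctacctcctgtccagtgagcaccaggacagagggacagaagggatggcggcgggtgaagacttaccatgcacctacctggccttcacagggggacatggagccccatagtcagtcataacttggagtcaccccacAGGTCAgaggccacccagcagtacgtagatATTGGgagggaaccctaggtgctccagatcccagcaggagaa
Sepp1: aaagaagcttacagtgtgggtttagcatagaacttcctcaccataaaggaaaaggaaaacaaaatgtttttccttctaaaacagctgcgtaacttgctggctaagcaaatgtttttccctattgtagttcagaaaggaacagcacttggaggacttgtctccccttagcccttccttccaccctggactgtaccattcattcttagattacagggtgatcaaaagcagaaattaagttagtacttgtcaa
The Fgf21 sequence held TATAAA with its first base 32 bases before the start. It also held the amino acid response core TGATGNAA, read on the other strand as TTGCATCA, 143 bases before the start. Angptl4 held TATAAA at 39 bases, in a run that also reads as TATAAA on the other strand, which overlaps it. Gdf15 held the nuclear receptor half-site AGGTCA at 72 bases and CCAAT, on the other strand, at 42 bases. In the Sepp1 sequence none of the 7 motifs matched. The others searched, on both strands, were a direct repeat of AGGTCA with 1 base between, TGACGTCA and TTGCNNAA. Among 33469 promoters of this length, 12.9% held TATAAA, 3.4% TGATGNAA, 14.1% AGGTCA and 34.0% CCAAT. A match describes letters only. RefSeq promoters were matched for 7 of the 8 genes, all but Fetub.

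Of the 7 hepatokines measured, Fetub transcript 1 was lower in EtOH livers and no other passed the test, set against the 2.42% called over all transcripts and the 4.47% called among those with a mean RPKM of 1 or more. In liver RNA, fewer cells of a type and less RNA per cell cannot be told apart. Mean RPKM over 12 livers put Sepp1 at rank 26, Rbp4 at rank 29 and Fetub transcript 1 at rank 37 of all transcripts, and Lect2 at rank 491, Angptl4 at rank 881, Gdf15 at rank 6205 and Fgf21 at rank 9631. The hepatokines that circulate as abundant carriers or inhibitors thus stood far above the 2 stress-responsive hormones.

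**Figure D1:**
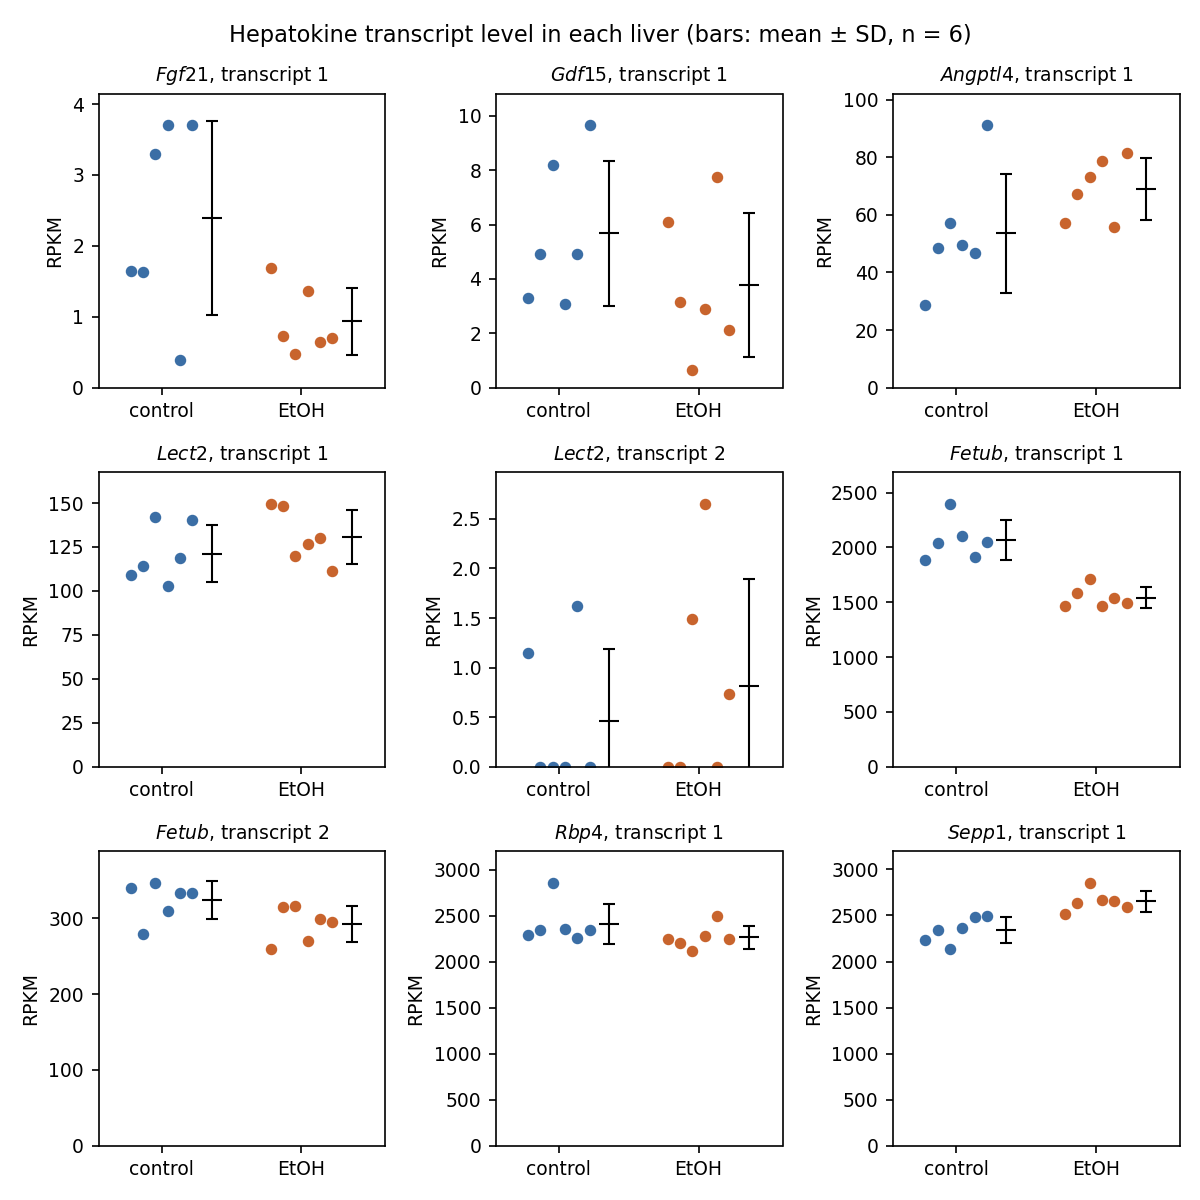
RPKM of each hepatokine transcript in each liver, with controls on the left and EtOH animals on the right of each panel. Points are single livers and bars the mean ± SD (n = 6), cut at 0 for Lect2 transcript 2. The 6 EtOH points of Fetub transcript 1 lie below all control points, and those of Sepp1 lie above them.

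Fetub encodes fetuin-B, a secreted protease inhibitor related to the cystatins. Transcript 1 (chromosome 11, 80279257 to 80287446, build not given) lay at 1885 RPKM in the lowest control, 2044 at the median and 2396 in the highest. In EtOH animals the lowest liver held 1463 RPKM, the median was 1517 and the highest 1709. Every EtOH liver lay below every control. Mean RPKM was 2064 ± 182 in controls and 1542 ± 93.5 in EtOH animals (SD, n = 6 each), 1.34-fold lower, on 7612 to 15884 reads per liver. The log2 difference was -0.38 ± 0.05 (SE, 95% interval -0.49 to -0.26, limma adjusted p = 0.00385). The exact two-sided permutation p was 0.00216, the smallest that 924 regroupings can give. With median scaling of livers in place of quantile normalization the difference was -0.33 and the limma adjusted p 0.0534, so the call ended there. Groups that did not overlap, with EtOH lower, made up 2.43% of all transcripts and 10.0% of the 100 most abundant, and 12.0% of those 100 were called.

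The second Fetub transcript (chromosome 11, 80276850 to 80287427) is listed with nearly the same span, and reads shared between them may have been split by the authors' counting. It ran from 280 RPKM over a median of 333 to 347 in controls and from 260 over 297 to 317 in EtOH livers. The groups overlapped. Means were 324 ± 24.8 and 293 ± 23.3 RPKM, with a log2 difference of -0.06 ± 0.07 (95% interval -0.21 to 0.09, limma adjusted p = 0.714). The ratio of transcript 1 to transcript 2 within a liver, a comparison added after the values were seen, was 6.40 ± 0.697 in controls and 5.28 ± 0.248 in EtOH animals (exact permutation p = 0.00433, adjusted over 3 ratios 0.00649, n = 6 each). Its values ran from 5.54 to 7.30 in controls and from 5.01 to 5.65 in EtOH livers. As the ratio was chosen from these same values, its p is no independent test, and the adjustment does not correct for that choice.

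Ahsg encodes fetuin-A, the sister protein of fetuin-B, and its gene lies near Fetub on the same chromosome. Ahsg had 2 transcripts, and only the one with the higher mean level over all livers is given here and in the ratio below. It held 889 to 1256 RPKM in controls and 1170 to 1443 in EtOH livers. The mean was 1067 ± 137 in controls and 1290 ± 99.4 in EtOH animals, with a log2 difference of 0.35 ± 0.09 that was not called (limma adjusted p = 0.0598). Without control animal 1 the limma adjusted p of Ahsg was 0.0334. This was 1 of 6 alternatives among 24 under which Ahsg was called (limma adjusted p from 0.022 to 0.174 over all 24). The ratio of Fetub transcript 1 to Ahsg, also added after the values were seen, was 1.501 to 2.346 in controls and 1.132 to 1.276 in EtOH livers. The groups did not overlap. Its mean was 1.97 ± 0.322 against 1.20 ± 0.0557 (exact permutation p = 0.00216, adjusted over 3 ratios 0.00649, n = 6 each). Fetub transcript 1 already separated the groups when this ratio was chosen, so its p is no independent test. The adjustment over 3 ratios does not correct for that choice.

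**Figure D2:**
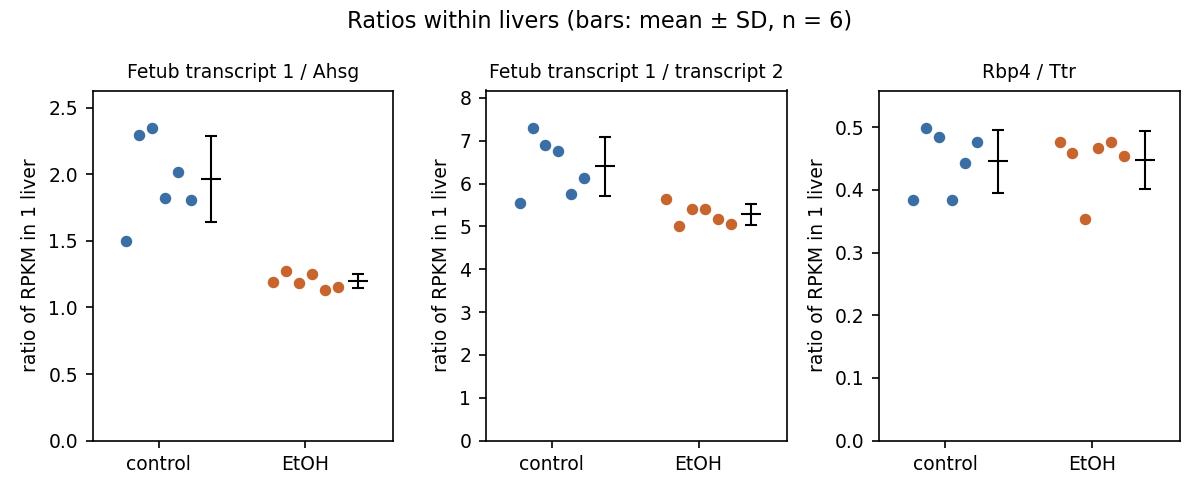
Ratio of RPKM within each liver for Fetub transcript 1 to Ahsg, Fetub transcript 1 to transcript 2, and Rbp4 to Ttr. The Fetub ratios were chosen after the values were seen. Points are livers and bars the mean ± SD (n = 6); the first ratio separates the groups, with all EtOH livers at 1.13 to 1.28, whereas Rbp4 to Ttr averages 0.445 in controls and 0.447 in EtOH livers.

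Sepp1 (chromosome 2, 52455731 to 52461466) held 2141 RPKM in the lowest control, 2354 at the median and 2494 in the highest. EtOH livers held 2515, 2647 and 2853 RPKM. Every EtOH liver thus lay above every control, by a narrow margin. The mean was 2343 ± 137 RPKM in controls and 2654 ± 112 in EtOH animals, 1.13-fold higher, and the exact permutation p on RPKM was 0.00216 (n = 6 each). After quantile normalization the highest control and the lowest EtOH liver were equal at 11.33 on the log2 scale, and the exact permutation p was 0.013. The limma log2 difference was 0.17 ± 0.07 (95% interval 0.03 to 0.31), with an adjusted p of 0.223, so Sepp1 was not called. Over all transcripts 0.677% had groups that did not overlap with EtOH higher, and among the 100 most abundant 4.00% did.

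Rbp4 (chromosome 1, 242443798 to 242450998) ran from 2265 over 2349 to 2858 RPKM in controls and from 2113 over 2249 to 2497 in EtOH livers. The groups overlapped, and 4 EtOH livers lay below the lowest control. Means were 2412 ± 222 and 2266 ± 128 RPKM, and the log2 difference was -0.09 ± 0.05 (95% interval -0.21 to 0.02, limma adjusted p = 0.464). Median scaling of livers turned the sign, to 0.0052, so no direction is given for Rbp4. Ttr, the transthyretin that binds RBP4 in plasma, stood at 5458 ± 612 RPKM in controls and 5100 ± 463 in EtOH animals, with a log2 difference of -0.01 ± 0.07. The ratio of Rbp4 to Ttr was 0.445 ± 0.0508 in controls and 0.447 ± 0.0467 in EtOH animals (exact permutation p = 0.959, n = 6 each).

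Angptl4 (chromosome 7, 16261644 to 16267852) ran from 28.6 over 49.0 to 91.2 RPKM in controls and from 55.7 over 70.2 to 81.3 in EtOH livers. In controls 4 of 6 livers lay below the lowest EtOH liver, while control animal 6 lay above all others. Means were 53.6 ± 20.7 and 68.9 ± 10.7 RPKM, 1.29-fold higher, and the exact permutation p on RPKM was 0.147 (n = 6 each). The log2 difference was 0.58 ± 0.22 (95% interval 0.12 to 1.05, limma adjusted p = 0.202), so Angptl4 was not called. Without control animal 6 the difference was 0.77 and the adjusted p 0.0209. The coefficient of variation was 38.6% in controls and 15.6% in EtOH livers, where read counting alone gives 5.11% in controls.

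Lect2 transcript 1 (chromosome 17, 13995034 to 14001255) encodes a chemotactic protein made by hepatocytes. It ran from 103 over 117 to 142 RPKM in controls and from 111 over 128 to 149 in EtOH livers, and the groups overlapped. Means were 121 ± 16.4 and 131 ± 15.4 RPKM, with a log2 difference of 0.28 ± 0.11 (limma adjusted p = 0.228). The ratio of mean RPKM was 1.08, and with no normalization between livers the log2 difference was 0.11. The second transcript of Lect2, listed with the same span, rested on 9 reads in all controls and 26 in all EtOH livers, and was at 0 in some livers of both groups.

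Fgf21 (chromosome 1, 96082475 to 96083718) was the lowest of the hepatokines. It ran from 0.388 over 2.47 to 3.70 RPKM in controls and from 0.476 over 0.716 to 1.69 in EtOH livers. In 3 controls it lay above all EtOH livers, yet the lowest liver of all was a control. Means were 2.40 ± 1.37 and 0.934 ± 0.477 RPKM, and the exact permutation p was 0.0563 (n = 6 each). The log2 difference was -0.91 ± 0.38 (95% interval -1.73 to -0.08, limma adjusted p = 0.27). These values rested on 34 reads in all controls and 18 in all EtOH livers, between 1 and 11 per liver. Counting alone gives a coefficient of variation of 42.0% in controls, against 57.2% observed.

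Gdf15 (chromosome 16, 19310854 to 19313465), a hormone of the TGF-beta family that acts on the hindbrain, ran from 3.09 over 4.92 to 9.66 RPKM in controls and from 0.635 over 3.03 to 7.74 in EtOH livers. The groups overlapped. Means were 5.68 ± 2.67 and 3.77 ± 2.64 RPKM, and the log2 difference was -0.61 ± 0.45 (95% interval -1.59 to 0.37, limma adjusted p = 0.589). Without EtOH animal 3, the lowest liver, the difference was -0.28 (limma adjusted p = 0.752). Between 4 and 43 reads per liver were recovered. Its receptor gene Gfral was listed at 0 in all livers.

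**Figure D3:**
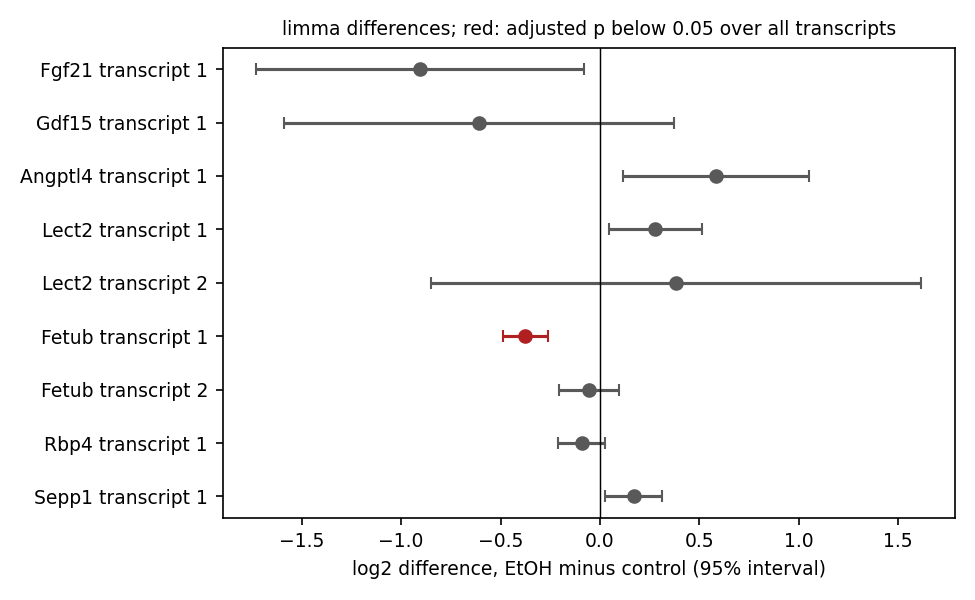
Log2 difference, EtOH minus control, with 95% intervals from limma for the 9 hepatokine transcripts. Only Fetub transcript 1 (red, -0.38) was called; the intervals of Fgf21, Angptl4, Lect2 transcript 1 and Sepp1 exclude 0 before adjustment but were not called over all transcripts.

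The receptors and binding partners of the hepatokines gave no call, at 0 of 16 tested by limma and 3 with an unadjusted p below 0.05, where 15.5% of all transcripts reached that. Here and below the 15.5% covers all transcripts, low ones included. Its counterpart among transcripts with a mean RPKM of 1 or more, a level reached by 13 of these 16, was not computed. Klb, the co-receptor of FGF21, stood at 7.35 ± 1.81 RPKM in controls and 5.67 ± 1.16 in EtOH livers, with a log2 difference of -0.25 ± 0.17 (limma adjusted p = 0.543). Fgfr4 stood at 12.6 ± 2.17 and 12.2 ± 0.944 RPKM and Fgfr1 at 1.11 ± 0.508 and 1.17 ± 0.548 RPKM, with groups that overlapped. Tek, an angiopoietin receptor, had the smallest p of the list, with a log2 difference of 0.50 ± 0.13 (limma adjusted p = 0.0666). Under 3 of 24 alternatives Tek was called (limma adjusted p from 0.0337 to 0.154 over all 24).

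Of the lipoprotein lipase axis, on which ANGPTL4 acts, 1 of 7 genes was called, beside 2.42% of all transcripts. In the same list 3 genes had an unadjusted p below 0.05 by limma, beside 15.5% of all transcripts. All 7 had a mean RPKM of 1 or more, a level at which 4.47% of transcripts were called. Lipc, the hepatic lipase, was 1.21-fold higher (log2 difference 0.42 ± 0.09, limma adjusted p = 0.0299), with a call that was lost without any 1 of EtOH animals 2, 3, 4 and 6 and control animals 2 to 5 (limma adjusted p up to 0.0715). Lpl itself stood at 2.23 ± 0.61 RPKM in controls and 3.10 ± 1.03 in EtOH livers (limma adjusted p = 0.404). No transcript carried the name Angptl8 or its other symbol Gm6484, so that gene was not tested here. The paper lists Gm6484 among its genes lowered in EtOH animals. Among 13 retinol genes none was called by limma, and 3 had an unadjusted p below 0.05. Aldh1a1, which oxidizes retinal to retinoic acid, had the smallest p, at 124 ± 46.3 RPKM in controls and 56.5 ± 11.3 in EtOH livers. Its groups did not overlap, with EtOH lower, as for 2.43% of all transcripts. The limma adjusted p was 0.0548, so Aldh1a1 was not called. It was called under 9 of 24 alternatives (limma adjusted p from 0.0246 to 0.136 over all 24). These 9 included median scaling, no normalization between livers, and leaving out control animal 1 or 6 (as low as 0.0266).

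Among 19 selenium and selenoprotein genes 1 was higher and 2 were lower in EtOH livers, beside 1.13% and 1.29% of all transcripts. An unadjusted p below 0.05 by limma was reached by 9 of the 19, beside 15.5% of all transcripts. All 19 had a mean RPKM of 1 or more, where 4.47% of transcripts were called in either direction. The median log2 difference of the list was -0.21, beside 0.00019 over all transcripts. Scly, the lyase that frees selenium from selenocysteine, fell from 45.5 ± 6.68 to 23.3 ± 3.51 RPKM (log2 difference -0.79 ± 0.09, limma adjusted p = 0.00137). Txnrd1, the cytosolic thioredoxin reductase and itself a selenoprotein, fell from 39.4 ± 5.98 to 23.7 ± 3.33 RPKM (-0.55 ± 0.10, limma adjusted p = 0.0152). For both genes every EtOH liver lay below every control, as for 2.43% of all transcripts, where 0.677% lay the other way. Selt rose (0.45 ± 0.09, limma adjusted p = 0.0299), with a call that was lost without any 1 of EtOH animals 1, 2, 3 and 5 and control animals 4 and 5 (limma adjusted p up to 0.0715). That rise is of the higher of 2 Selt transcripts, and the call was also lost with the transcripts of a gene summed. The summed RPKM of the 19 genes, which do not include Sepp1, was 624 to 841 in controls and 519 to 592 in EtOH livers. The RPKM of Sepp1 thus separated the groups in the opposite direction to the sum. The sum is not normalized between livers, and without normalization transcripts with a mean RPKM of 1 or more had a median log2 difference of -0.082. Its largest parts were Selenbp1 and Gpx4, at means of 111 and 109 RPKM over 12 livers. No transcript carried the name Gpx1.

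Of the other hepatokines and secreted liver hormones, 3 of 18 were higher and 2 were lower, beside 1.13% and 1.29% of all transcripts. An unadjusted p below 0.05 by limma was reached by 12 of the 18, beside 15.5% of all transcripts. All 18 had a mean RPKM of 1 or more, where 4.47% of transcripts were called in either direction. The share with an unadjusted p below 0.05 was not computed at that level. Tsku, the secreted tsukushi, fell 4.60-fold, from 235 ± 71.1 to 51.1 ± 20.3 RPKM (log2 difference -2.06 ± 0.25, limma adjusted p = 0.00215). Hamp, the gene of the iron hormone hepcidin, fell from 569 ± 152 to 300.1 ± 46.8 RPKM (-0.82 ± 0.16, limma adjusted p = 0.0224). Igfbp1, a binding protein of insulin-like growth factors, rose from 25.4 ± 10.4 to 53.7 ± 17.8 RPKM (1.25 ± 0.25, limma adjusted p = 0.0236). Gpnmb, a membrane glycoprotein with a shed form, rose from 8.08 ± 2.00 to 14.6 ± 3.20 RPKM (0.95 ± 0.18, limma adjusted p = 0.0229). Hgf, the hepatocyte growth factor, named after its values were seen, rose from 2.67 ± 0.79 to 4.94 ± 1.22 RPKM (0.85 ± 0.19, limma adjusted p = 0.0424). Gpnmb and Hgf are made by cells other than hepatocytes, whose markers were higher as given above, and the part of those cells was not tested. The Hamp call was lost without EtOH animal 3 or control animal 2 (limma adjusted p up to 0.0525), the Igfbp1 call without EtOH animal 2 or 3 (up to 0.0565), the Gpnmb call without EtOH animal 2 (0.0585), and the Hgf call without any 1 liver other than control animal 6 (up to 0.0869).

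**Figure D4:**
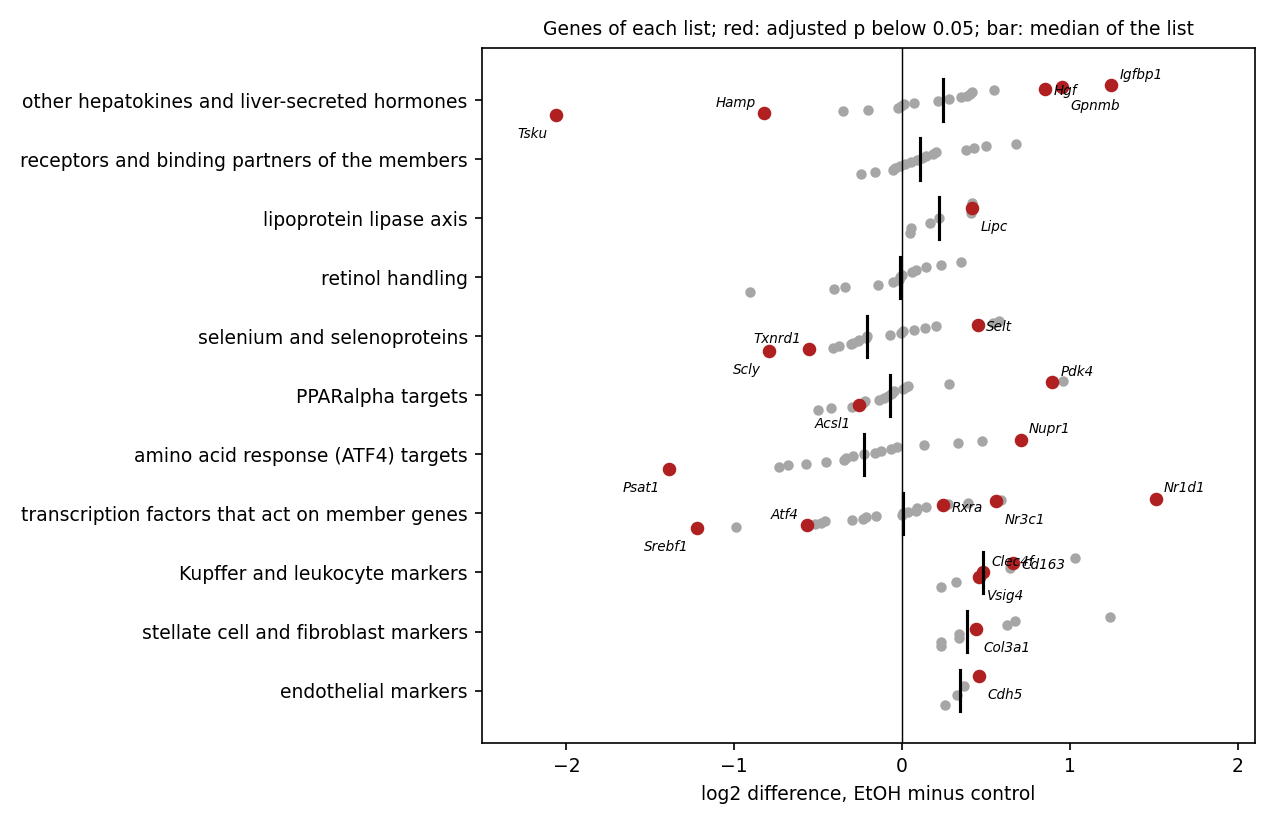
Log2 difference, EtOH minus control, of each gene in the 8 lists of partners and regulators and in 3 lists of cell type markers. Red points were called by limma, and bars mark the median of a list. The median of the selenium list lies at -0.21. That of the other hepatokines and secreted liver hormones, a list with none of the 8 members, lies at 0.25.

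Among 23 transcription factors known to act on these genes, 3 were higher and 2 lower, beside 1.13% and 1.29% of all transcripts. An unadjusted p below 0.05 by limma was reached by 9 of the 23, beside 15.5% of all transcripts. Of the 23, 22 had a mean RPKM of 1 or more, where 4.47% of transcripts were called in either direction. Atf4, which drives Fgf21 under amino acid shortage, fell from 107 ± 15.7 to 64.3 ± 3.10 RPKM (log2 difference -0.57 ± 0.08, limma adjusted p = 0.00507). Srebf1, a driver of fatty acid synthesis, fell from 76.2 ± 12.1 to 31.3 ± 14.5 RPKM (-1.22 ± 0.26, limma adjusted p = 0.0301). Nr3c1, the glucocorticoid receptor, rose by 0.56 ± 0.10 (limma adjusted p = 0.0161), and Rxra, the partner of PPARalpha, by 0.24 ± 0.05 (limma adjusted p = 0.023). Nr1d1, a repressor of the clock, named after its values were seen, rose by 1.51 ± 0.33 (limma adjusted p = 0.0358). The Srebf1 call was lost without any 1 of EtOH animals 1, 2, 4 and 6 and control animals 1 to 4 (limma adjusted p up to 0.0694). The Nr1d1 call was lost without any 1 of EtOH animals 2 to 6 and control animals 3 to 5 (up to 0.0756), and the Rxra call without EtOH animal 2, 3 or 4 or control animal 2 (up to 0.0593). Ppara stood at 12.2 ± 3.46 RPKM in controls and 16.5 ± 2.52 in EtOH livers (log2 difference 0.59 ± 0.17, limma adjusted p = 0.0962). It was called under 1 of 24 alternatives, the filter at a mean RPKM of at least 1 (limma adjusted p = 0.049). Its coactivator Ppargc1a stood at 0.525 ± 0.322 and 0.871 ± 0.401 RPKM (limma adjusted p = 0.489).

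Calls among known targets of ATF4 and PPARalpha are set beside the 2.42% called over all transcripts. An unadjusted p below 0.05 by limma was reached by 8 of 17 amino acid response genes and 6 of 18 PPARalpha targets, beside 15.5% of all transcripts. A mean RPKM of 1 or more was reached by 10 of the 17 and 17 of the 18. Of 17 amino acid response genes Nupr1 rose (0.71 ± 0.14, limma adjusted p = 0.0244) and Psat1, an enzyme of serine synthesis, fell from 6.10 ± 2.00 to 1.93 ± 0.747 RPKM (-1.39 ± 0.25, limma adjusted p = 0.0158). The other 15 did not pass, and the list median was -0.23. Of 18 PPARalpha targets Pdk4, a brake on glucose oxidation, rose (0.89 ± 0.21, limma adjusted p = 0.0478) and Acsl1 fell by 0.25 on the log2 scale (limma adjusted p = 0.0229). The Pdk4 call was lost without any 1 liver other than EtOH animal 6 and control animal 6 (limma adjusted p up to 0.104), the Nupr1 call without EtOH animal 5 or control animal 2 or 4 (up to 0.0572), and the Acsl1 call without EtOH animal 3 or 5 or control animal 2 (up to 0.0535). With no normalization between livers the calls of Lipc, Selt, Pdk4, Nupr1, Rxra and Hgf were lost, at log2 differences of 0.28 for Lipc and 0.10 for Rxra, and with median scaling those of Pdk4 and Acsl1. Over these lists 18 of 127 partner genes were called, beside 2.42% of all transcripts and 4.47% of those with a mean RPKM of 1 or more. The lists were chosen with earlier results of these data known. Of the 18, 6 kept the call with each liver left out in turn: Tsku, Scly, Txnrd1, Atf4, Nr3c1 and Psat1.

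Across the 12 livers, transcripts most like each hepatokine were sought among transcripts averaging 5 RPKM or more, as a description of these livers with no test. The points share library depth and group. Each r is among the 3 highest of 6000 transcripts compared over only 12 livers, so it is high by that choice. Fgf21 also rested on 1 to 11 reads per liver. Fgf21 went most closely with Nubp2 (Pearson r = 0.87) and Atf5 (r = 0.86). Angptl4 went with Srgn (r = 0.94), Arhgef3 (r = 0.93) and Agtr1a (r = 0.92). Fetub went with Aacs, Aars and Mrps2 (r = 0.96 each), and after each group's mean was taken out these fell to 0.61, 0.60 and 0.52. Rbp4 went with Ambp (r = 0.93), another abundant carrier of plasma. Sepp1 went with Adam9 (r = 0.94). Over 21 pairs of hepatokines no correlation passed adjustment (lowest adjusted permutation p = 0.0967).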

How the data were processed

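Liver poly(A) RNA of 6 EtOH animals and 6 controls was read in pairs of 101 nucleotides, with all barcoded libraries in 1 lane per the paper. The authors mapped with CLCbio Genomics Workbench and deposited 1 RPKM value per transcript and liver, scaled to transcript length and mapped reads. For the genome build: not given in the sources used here. The table also holds the authors' own comparison (a fold change, a statistic, p-values and FDR), which was not used.

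Members and gene lists were chosen with earlier results of these data known. Genes are named by a rule that takes the 8 hepatokines, 12 partner genes, up to 4 called genes in each of 8 lists (or the smallest p where none was called), and the 3 most similar transcripts of each member. Of the genes this rule takes, 1 partner gene is not reported here but remains in every count and test. Symbols were matched by name, 163 of 187 listed symbols having a row, 8 of them through older or UniProt names.

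Values were turned to log2(RPKM + 0.5), quantile normalized over 12 livers and compared with limma 3.58.1 (R 4.3.3) with a mean-variance trend, with Benjamini-Hochberg adjustment over 21718 transcripts. Single values were compared by exact permutation over 924 regroupings (scipy 1.17.1). The procedure was tested on simulated data. Whole reads were recovered from the steps between RPKM values, for 21718 of 21718 transcripts within 0.01 read. Intervals and floors from reads cover counting error only. Alternatives were other pseudocounts, scalings, filters, tests, a block for the animal number, summed rows, each liver left out and, chosen after the data were seen, voom on recovered reads.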

Additional observations from a re-analysis of the deposited data

Results flagged for a closer look

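The Rbp4 level of control animal 3, 2858.16 RPKM, stood apart from the other controls. The next control held 2361 RPKM, and the gap made up 0.838 of the range of the 6 controls, above the critical value of 0.625. Of 18 groups of 6 livers examined this was the 1 set apart, and chance alone sets apart about 1 in 20.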

How the results depend on the processing

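Fetub kept its direction under all alternatives, and its call in 22 of 24. Its difference was -0.3259 (adjusted p 0.05336) under median scaling and -0.3755 (adjusted p 0.05136) with the animal number as a block. That number did not pair the animals: correlations of same-numbered livers ran from -0.067 to 0.032. Rbp4 took the value 0.005245 under median scaling. Angptl4 ran from 0.4331 to 0.771 with livers left out, and was called without control animal 6. Fgf21, Gdf15, Lect2 and Sepp1 kept direction and were called under none of 24 alternatives. With livers left out Gdf15 ran from -0.8613 to -0.2788 and Fgf21 from -1.201 to -0.7492.

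The 526 transcripts called became 322 in an unmoderated test on square-root values, 860 at a mean RPKM of at least 1, 113 with the block and 977 with rows of a gene summed, and 212 to 656 with livers left out (fewest without EtOH animal 2; under 300 also without EtOH animal 3, 4 or 5 or control animal 2 or 4). The 18 partner genes called became 9, 29, 3 and 29 in the same order, and 9 to 22 with livers left out; of the 18 calls, 15 were lost under the block. The ratio of Rbp4 to Ttr ran from -0.03355 to 0.07399 (log2) with livers left out. Fgfr4 reached -0.03727 with no normalization and Fgfr1 -0.03878 at a mean RPKM of at least 1. With livers left out Fgfr1 ran from -0.1575 to 0.2218 and Ttr from -0.0495 to 0.01612. The causes were not tested. Fgf21 rested on 1 to 11 reads per liver.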
